A study of Mus musculus with 2 samples.

Results

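Cyp11b1 and Cyp11b2 encode the zonal 11-beta-hydroxylases of the adrenal cortex, and their long reads were followed in 2 adrenal gland libraries. The members were taken as every transcript model that the deposited tables assign to either gene, in all read classes. This gave 2 genes of 13453 detected in replicate 1 and 2 of 14138 in replicate 2, with 90 models and 2682 reads in replicate 1 and 88 models and 2378 reads in replicate 2. The study sequenced whole adrenal gland RNA as long reads, each meant to cover a transcript from end to end. Both libraries came from male B6CASTF1/J mice, the first-generation cross of C57BL/6J and CAST/EiJ, at 36 days of age, with no treatment or genotype to compare. The labels are not clear on whether the libraries come from separate animals (in one field the animal numbers match, in another they do not), so the spread between them may be technical.

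The last steps of corticosteroid synthesis take place in mitochondria, where Cyp11b1 hydroxylates 11-deoxycorticosterone to corticosterone, the main glucocorticoid of mice. Cyp11b2, the aldosterone synthase, carries the same substrate through further oxidations to aldosterone, the main mineralocorticoid. Cyp11b1 is known as a gene of the zona fasciculata, under corticotropin and cAMP, and Cyp11b2 as one of the outer zona glomerulosa, under angiotensin II and potassium. In whole-gland RNA, fewer cells of a zone and less RNA per cell cannot be told apart.

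The genes are neighbours on the minus strand of chromosome 15 in mm10. Cyp11b1 (ENSMUSG00000075604.5) lies at chr15:74834125-74841643 and Cyp11b2 (ENSMUSG00000022589.7) at chr15:74851010-74856318, with 9366 bases between them. Each has 1 form that leads in these libraries, Cyp11b1-201 and Cyp11b2-201, and each of these has 9 exons. Exons 2, 3, 4, 6, 7 and 8 have the same length in both genes, at 156, 200, 204, 167, 79 and 189 bases. Among the inner exons, exon 5 is the exception, with 152 bases in Cyp11b1 and 155 in Cyp11b2, which gives open reading frames of 501 and 502 codons before the stop. The annotated untranslated ends differ more, since Cyp11b1-201 has a 3′ untranslated region of 1628 bases and Cyp11b2-201 one of 29 bases.

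In a global alignment of the GENCODE M21 coding sequences, 1312 of 1509 columns were identical (86.9%). Likeness was uneven along the genes. The coding part of exon 1 had 243 of 245 columns identical, with an unbroken identical run of 220 bases. Exon 6 stood at 96.4%, exon 7 at 94.9%, exon 8 at 91.5%, exon 9 at 86.8%, exon 2 at 85.3%, exon 4 at 83.3% and exon 3 at 78.5%. Exon 5 was lowest at 65.2%, with 51 differing bases and 3 gap columns. It is shown because it is where the paralogues are easiest to tell apart in a read; Cyp11b1 exon 5 is chr15:74838494-74838645 and Cyp11b2 exon 5 is chr15:74853039-74853193, both read 5′ to 3′ on the minus strand, and capitals mark bases that differ from the other gene or have no partner in it.
Cyp11b1 exon 5: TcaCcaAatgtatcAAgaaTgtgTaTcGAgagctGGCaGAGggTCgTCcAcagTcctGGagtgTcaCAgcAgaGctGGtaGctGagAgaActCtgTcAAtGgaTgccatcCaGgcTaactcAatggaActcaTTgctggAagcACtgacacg
Cyp11b2 exon 5: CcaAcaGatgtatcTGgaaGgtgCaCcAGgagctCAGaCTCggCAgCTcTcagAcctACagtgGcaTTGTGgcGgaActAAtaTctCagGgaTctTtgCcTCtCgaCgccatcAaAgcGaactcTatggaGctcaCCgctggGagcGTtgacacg

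Some unannotated splice sites of the reads lie inside annotated exons, and their surroundings are shown because the paralogues differ there or share them. One is at the start of exon 8, where some Cyp11b1 reads begin 4 bases late (Cyp11b1 exon 8 is chr15:74836233-74836421, Cyp11b2 exon 8 is chr15:74851419-74851607; capitals mark the 4 bases). The bases left out end in AG in Cyp11b1 and in AT in Cyp11b2.
Cyp11b1 exon 8, first 30 bases: ACAGtcctcaatgtgaatctgtattccatg
Cyp11b2 exon 8, first 30 bases: ACATtggtcctactttatctctactccatg
Exon 4 has the same kind of late start in both genes (Cyp11b1 chr15:74838905-74839108, Cyp11b2 chr15:74853464-74853667), and there the 4 bases in capitals end in AG in each.
Cyp11b1 exon 4, first 30 bases: CTAGccactttgttctttttggggagcggc
Cyp11b2 exon 4, first 30 bases: CCAGcaactttgctctttttggggaacggc
In exon 2, some Cyp11b1 reads stop 89 bases early (Cyp11b1 chr15:74840810-74840965, Cyp11b2 chr15:74855430-74855585). The bases left out are in capitals, and begin with GT in both genes.
Cyp11b1 exon 2: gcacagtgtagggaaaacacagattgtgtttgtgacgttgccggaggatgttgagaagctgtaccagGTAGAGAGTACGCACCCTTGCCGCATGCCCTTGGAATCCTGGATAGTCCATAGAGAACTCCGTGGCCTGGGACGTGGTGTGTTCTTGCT
Cyp11b2 exon 2: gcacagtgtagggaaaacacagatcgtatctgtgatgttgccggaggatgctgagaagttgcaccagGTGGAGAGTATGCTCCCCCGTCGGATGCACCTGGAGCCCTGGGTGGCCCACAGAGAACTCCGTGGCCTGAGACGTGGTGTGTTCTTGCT

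Cyp11b1 was among the most frequent transcripts of the gland. It had 2460 reads in replicate 1 and 2251 in replicate 2, which is 5437 (95% Wilson interval 5227 to 5656) and 4861 (4664 to 5065) CPM (reads per 1000000 endogenous reads), and it ranked 6 and 8 among all detected genes by reads. The mean was 5149 ± 408 CPM (SD, n = 2). Cyp11b2 had 222 and 127 reads, or 491 (430 to 560) and 274 (231 to 326) CPM, with ranks of 288 and 617. Its mean was 382 ± 153 CPM (SD, n = 2), so its spread between the libraries was larger in proportion than that of Cyp11b1. With 452437 and 463102 endogenous reads, a single read weighed 2.21 and 2.16 CPM, and the intervals cover counting error only.

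**Figure D1:**
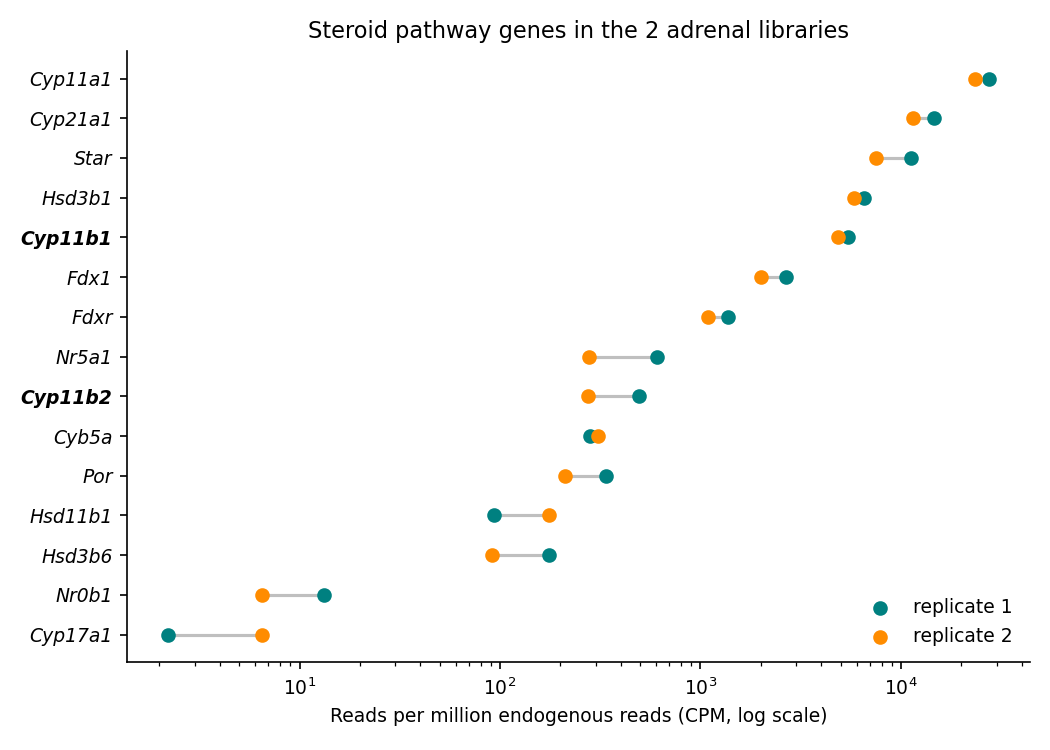
CPM over endogenous reads (log scale, not divided by transcript length) of the 15 steroid pathway genes with reads, ordered by mean, with replicate 1 in teal and replicate 2 in orange and a grey line joining them. Cyp11b1 lies near 5149 CPM with its points close together, and Cyp11b2 near 382 CPM with its points farther apart.

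Reads of Cyp11b1 outnumbered those of Cyp11b2 in both libraries, and by a different factor in each. The ratio was 11.1 in replicate 1 (95% exact conditional interval 9.66 to 12.8) and 17.7 in replicate 2 (14.8 to 21.4), a mean of 14.4 ± 4.70 (SD, n = 2). The intervals do not overlap, and the 4 counts gave p = 3.74e-05 by Fisher's exact test (two-sided). That test covers counting error and compares these 2 libraries, not conditions. As a share, Cyp11b2 made up 8.28% (7.29 to 9.38) of the reads of both genes in replicate 1 and 5.34% (4.51 to 6.32) in replicate 2. Full-length reads gave 11.2 and 18.0 (p = 0.000137), and reads that match an annotated form gave 11.2 and 17.5 (p = 0.000402, both exact tests).

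The size of this ratio depends on whether reads are divided by length. Each long read was meant to cover a transcript from end to end, so the undivided ratio above is the main one. Scaled values are given as alternatives. Per kilobase of the annotated transcripts, 3165 bases for Cyp11b1-201 and 1625 for Cyp11b2-201, the ratio was 5.69 in replicate 1 and 9.10 in replicate 2. The model ends described below would give lengths of 2419 and 2896 bases, and with these the mean ratio per kilobase was 17.2. Cyp11b1 was the more frequent under each of these scales.

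**Figure D2:**
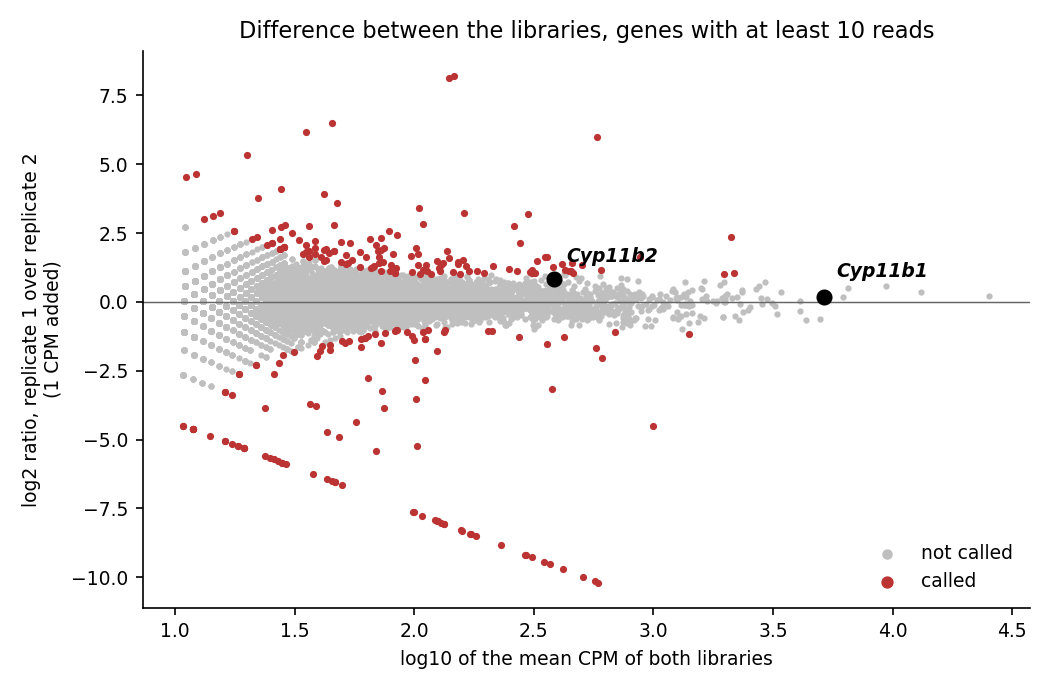
Each point is a gene with at least 10 reads over both libraries; the horizontal axis is the log10 of its mean CPM and the vertical axis the log2 ratio of replicate 1 over replicate 2 with 1 CPM added, with called genes in red. Both members, in black, lie above 0 and outside the called genes, Cyp11b2 at 0.84 and Cyp11b1 at 0.16.

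Both genes had a higher CPM in replicate 1, Cyp11b2 by the larger factor. The ratio of replicate 1 over replicate 2 was 1.12 for Cyp11b1 (95% interval 1.06 to 1.18) and 1.79 for Cyp11b2 (1.43 to 2.24). In two-sided Fisher's exact tests with Benjamini-Hochberg adjustment over 8135 genes, the adjusted p was 0.00335 for Cyp11b1 and 5.93e-06 for Cyp11b2. A gene was called when its adjusted p was under 0.05 and its ratio at least 2-fold with 1 CPM added, and 0 of the 2 members were called, beside 3.16% of all genes tested (1.71% with the higher value in replicate 1, 1.45% with it in replicate 2). At any fold, 2 of 2 members passed the adjusted p and were higher in replicate 1, beside 6.47% of genes that passed in either direction and 3.34% that did so higher in replicate 1. The median log2 ratio of all genes was 0.03, below the 0.16 of Cyp11b1 and the 0.84 of Cyp11b2.

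Reads of other tissues moved with the libraries too. The 8 pancreatic acinar markers had a sum of 75.1 CPM in replicate 1, against 6586 CPM in replicate 2. Beside 1.45% of all genes tested, 8 of 8 were called higher in replicate 2. Of these, 7 had no read in replicate 1, where Cela1 held the 34 reads of the list. The 6 liver markers summed to 6.63 and 514 CPM, with 6 of 6 called higher in replicate 2. The gene lists were chosen with earlier results of these data known, so such counts describe the libraries and are no independent support. Chromaffin markers, genes of the adrenal medulla, had sums of 10543 and 15461 CPM. Of the 7 tested 0 were called, while 4 passed the adjusted p below 2-fold, all higher in replicate 2, beside 3.12% of all genes tested that passed in that direction; of these Chgb, a granin of secretory granules, had 1525 and 2477 reads (adjusted p = 1.48e-44 by Fisher's exact test). The 6 fat markers went both ways, with sums of 8085 and 8611 CPM. Ucp1, the uncoupling protein of brown fat, was called higher in replicate 2 (198 and 437 reads), Fabp4 and Cidea passed the adjusted p higher in replicate 2, and Car3 passed it higher in replicate 1 (1664 and 1019 reads). Among red blood cell markers Alas2 was called higher in replicate 1. The part of these reads in the members' CPM was not tested; the Cyp11b1 to Cyp11b2 ratio is taken within a library and does not involve the total.

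Against other genes of the cortex, Cyp11b1 kept a near constant ratio to some and not to others. There were 19.8 Cyp11b1 reads (19.0 to 20.7) per 100 reads of Cyp11a1, the cholesterol side-chain cleavage enzyme, in replicate 1 and 20.7 (19.8 to 21.7) in replicate 2. Per 100 reads of Hsd3b1, a 3-beta-hydroxysteroid dehydrogenase, the values were 83.0 and 83.7. Per 100 reads of Star, which brings cholesterol into mitochondria, they were 48.6 (46.3 to 51.0) and 64.8 (61.4 to 68.3), and those intervals do not overlap. Nor do those per 100 reads of Cyp21a1, the 21-hydroxylase, at 37.1 (35.4 to 38.8) and 42.1 (40.1 to 44.3). Cyp11b2 had 1.79 (1.56 to 2.05) and 1.17 (0.974 to 1.39) reads per 100 of Cyp11a1. Per 100 of Hsd3b1 it had 7.49 (6.51 to 8.59) and 4.72 (3.92 to 5.65). Per 100 of Cyp21a1 it had 3.34 (2.91 to 3.82) and 2.38 (1.98 to 2.83). Cyp11b2 was lower in replicate 2 in each case. Its intervals overlapped between the libraries per 100 reads of Star, at 4.38 (3.81 to 5.01) and 3.65 (3.04 to 4.36), and per 100 reads of Kcnk3, a potassium channel known in the zona glomerulosa, at 14.9 (12.9 to 17.2) and 12.3 (10.2 to 14.8). For Cyp11b1 the intervals per 100 reads of Kcnk3 did not overlap, at 165 (155 to 176) and 219 (203 to 235). None of these ratios of reads was divided by transcript length.

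Most of the wider pathway was higher in replicate 1. Of 16 steroid pathway genes, the members included, 15 had reads and 13 could be tested. Of these, 11, both members among them, passed the adjusted p higher in replicate 1, and 1 passed in the opposite direction. Beside them, 3.34% of all genes tested passed higher in replicate 1. The median log2 ratio of the 13 was 0.35, beside 0.03 for all genes. The call threshold was passed by 1 of the 13, Nr5a1, beside 3.16% of all genes tested. Nr5a1, the transcription factor steroidogenic factor 1, had 274 reads in replicate 1 and 129 in replicate 2 (log2 ratio 1.12, adjusted p = 5.35e-12 by Fisher's exact test). The most frequent were Cyp11a1 with 12394 and 10862 reads, Cyp21a1, the 21-hydroxylase, with 6639 and 5343, and Star with 5066 and 3475. Hsd11b1, which regenerates corticosterone from its inactive keto form, went against the rest with 42 and 81 reads (adjusted p = 0.0169). Cyp17a1, the 17-alpha-hydroxylase, had 1 and 3 reads, at or under the floor of 3 reads. Fdx1 and Fdxr, the ferredoxin and its reductase that pass electrons to the mitochondrial P450 enzymes, had 1210 and 926 reads and 622 and 502 reads, and both passed the adjusted p below 2-fold. Of 6 mitochondrial P450 genes 4 had reads, the members, Cyp11a1 and Cyp27a1 (10 and 7 reads).

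No marker of either zone was called, but only 3.16% of all genes tested were, so these counts of 0 do not set either zone apart. Among all 8135 genes tested, the median log2 ratio was 0.03 and 4493 were higher in replicate 1. Of 11 zona glomerulosa genes, Cyp11b2 included, 10 had reads, 8 were tested, 7 were higher in replicate 1 and 0 were called; their median log2 ratio was 0.53. Kcnk3 (1489 and 1030 reads) and Hsd3b6, the 3-beta-hydroxysteroid dehydrogenase isoform of that zone (79 and 42 reads), passed the adjusted p below 2-fold at 2.90e-20 and 0.0117. Agtr1a, the angiotensin II receptor, had 101 and 73 reads, Wnt4 had 167 and 159 and Dab2 58 and 57, none past the adjusted p. Kcnj5 was not listed in either library. Of the 6 zona fasciculata genes, Cyp11b1 included, 5 were higher in replicate 1 and 0 were called, with a median of 0.13. Akr1b7, an aldose reductase family member, had 3458 and 2480 reads, and Mrap, the accessory protein of the corticotropin receptor, 357 and 189 (log2 ratio 0.95, adjusted p = 5.35e-12). Mc2r, the receptor itself, had 35 and 36 reads. X-zone markers had at most 3 reads in a library.

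Among the regulators, the called genes were transcription factors. Of 16 genes listed as acting on the Cyp11b promoters, 9 were tested and 4 were called. All 4 were higher in replicate 1, beside 1.71% of all genes tested that were called in that direction. This list too was chosen with earlier results of these data known. Nr4a1, an orphan nuclear receptor and immediate-early gene, had 519 reads in replicate 1 and 8 in replicate 2, and its relative Nr4a2 had 24 and 1. Crem, a cAMP-responsive modulator, had 95 and 32 reads, and Nr5a1 is given above. Nr2f2, Gata6, Usf1 and Usf2 did not pass, with 16 and 16, 26 and 32, 14 and 9, and 25 and 19 reads. Over all genes tested, 3.16% were called in either direction, and counts of 0 or 1 do not set the next lists apart. The list of aldosterone control (18 genes, 12 tested) had 0 called and a median log2 ratio of 0.34. Its most frequent member was Kcnk3, given above. The list of corticotropin signalling (13 genes, 10 tested) had 1 called, Crem, and a median of 0.22. In it Prkar1a, a regulatory subunit of protein kinase A, had 294 and 187 reads (log2 ratio 0.69, adjusted p = 1.29e-05), while Gnas had 895 and 927 and Prkaca 169 and 163. Whether these regulators bear on Cyp11b2 in the 2 libraries was not tested.

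Several genes had read shares close to those of the members in both libraries. By the summed distance of log2 CPM in the 2 libraries, Hsd3b1, Akr1b7, Fth1, Aldoa and Chga lay nearest to Cyp11b1, at 0.52 to 0.77. Vcp, Serp1, Plpp1, G3bp1 and Elovl5 lay nearest to Cyp11b2, at 0.18 to 0.23. For example, Hsd3b1 had 6551 and 5804 CPM, and Vcp had 435 and 276 CPM. These are likenesses of read share over 2 libraries, not divided by length.

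**Figure D3:**
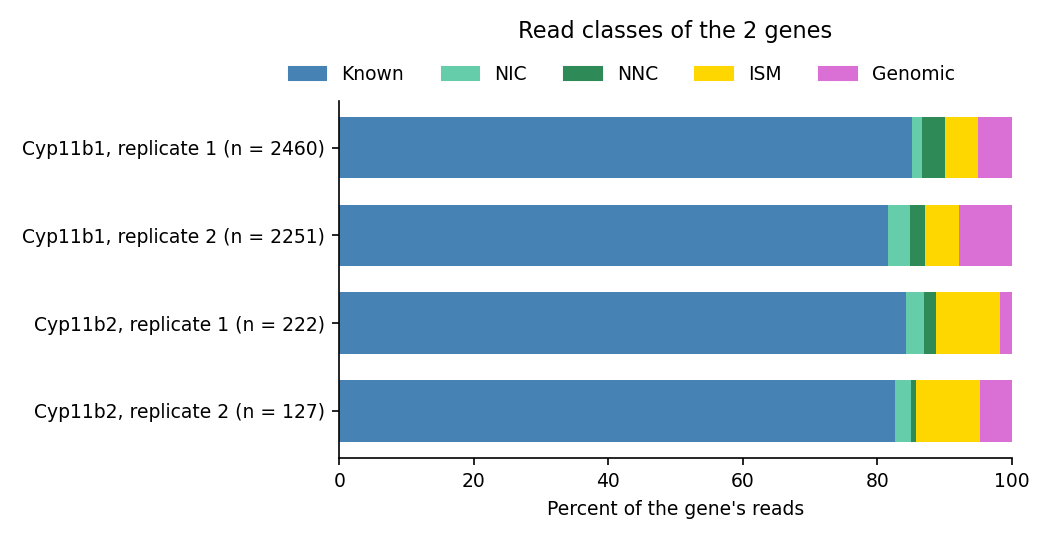
Stacked bars give the percent of each gene's reads in each class, per library, with the number of reads in the label. Known reads hold at least 81.7% of every bar; the ISM segment is wider for Cyp11b2 and the Genomic segment of Cyp11b1 is wider in replicate 2.

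Most reads of both genes followed an annotated form. A read is Known when its chain of introns matches one, NIC when it joins annotated sites anew, NNC when it uses a site outside the annotation, ISM when it holds only part of an annotated chain, and Genomic when it overlaps the gene on its strand and fits none of the others. Known reads were 85.2% (83.7 to 86.6) and 81.7% (80.0 to 83.2) of Cyp11b1 in replicates 1 and 2, and 84.2% (78.9 to 88.4) and 82.7% (75.2 to 88.3) of Cyp11b2. Beside them, other endogenous reads were Known in 75.6% and 73.1% for the Cyp11b1 test, which gave adjusted p = 2.67e-30 and 4.03e-20 by Fisher's exact test over 20 tests. For Cyp11b2 the adjusted p was 0.00635 and 0.0396. Against reads of annotated genes only, which are Known in 79.0% and 78.0%, the Cyp11b2 difference did not pass (adjusted p = 0.129 and 0.433), and that of Cyp11b1 did (4.41e-14 and 8.08e-05). These comparisons pool the reads of all other genes, among which Cyp11a1, with many reads, was Known in 43.0% and 36.8%. Gene by gene the members lay below the middle. Among 807 genes with at least 100 reads in replicate 1 and 809 in replicate 2, the median Known share was 91.6% and 90.6%, and it was higher than that of Cyp11b1 in 592 and 607 genes and than that of Cyp11b2 in 604 and 591.

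Among the other classes, ISM reads were 5% and 5.06% of Cyp11b1, below the 7.90% and 8.46% of other reads (adjusted p = 6.80e-08 and 4.12e-09). They were 9.46% and 9.45% of Cyp11b2, with adjusted p of 0.563 and 0.79. NIC reads of Cyp11b1 were 1.42% in replicate 1, below the 4.07% of other reads (adjusted p = 2.86e-13 by Fisher's exact test), and 3.29% in replicate 2, against 3.35% (adjusted p = 0.953). The label of a chain could change between the libraries, as for the exon 9 acceptor form described below, NNC in replicate 1 and NIC in replicate 2. Gene by gene, NIC and NNC reads together were 5.37% and 6.32% of full-length Cyp11b1 reads, above medians of 2.18% and 1.71%. That share was higher than in Cyp11b1 in 198 of 807 and 143 of 809 genes. Full-length reads (Known, NIC and NNC) made up 90.0% and 87.2% of Cyp11b1 and 88.7% and 85.8% of Cyp11b2, a difference of 1.30 and 1.33 percentage points that did not pass Fisher's exact test (p = 0.56 and 0.683). With Genomic reads left out the shares were 94.7% and 94.5% for Cyp11b1 and 90.4% and 90.1% for Cyp11b2, with p = 0.0129 in replicate 1 and 0.0656 in replicate 2 by the same exact test. Genomic reads were 4.96% and 7.77% of Cyp11b1 and 1.80% and 4.72% of Cyp11b2. Against other endogenous reads the tests that passed went both ways. Cyp11b1 was higher in replicate 2, where other reads were Genomic in 6.02% (adjusted p = 0.00243), and Cyp11b2 was lower in replicate 1, where they were so in 5.08% (adjusted p = 0.0464 by Fisher's exact test). Gene by gene, the median Genomic share was 0.388% and 0.431%, and 98 of 807 and 81 of 809 genes lay above Cyp11b1. Among abundant steroid genes, Genomic reads were 49.6% and 58.0% of Cyp11a1, above both members. They were 1.76% and 2.56% of Cyp21a1, below Cyp11b1 in both libraries (adjusted p = 5.21e-15 and 1.45e-22 by Fisher's exact test over 24 tests). Star had 0.355% and 11.3%, below Cyp11b1 in replicate 1 and above it in replicate 2.

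Truncated reads of both genes began at many exons. Of the ISM reads of Cyp11b1, 86 of 123 in replicate 1 and 84 of 114 in replicate 2 kept the 3′ part of the chain, as did 13 of 21 and 9 of 12 of Cyp11b2. The first intron that these held in Cyp11b1 was most often intron 4 (21 and 23 reads) or intron 8 (18 and 20 reads), and 12 and 12 reads lacked only the first intron. Most of the rest kept the 5′ part, 34 and 25 reads of Cyp11b1 and 8 and 3 of Cyp11b2. Of these, 29 and 22 and all 8 and 3 were models whose last exon ran through intron 8. At the 5′ end, 2205 of 2215 and 1949 of 1962 full-length Cyp11b1 reads belonged to models that start at the annotated start. For Cyp11b2 these were 197 of 197 and 109 of 109. Known reads make up 2096 and 1838 of the Cyp11b1 reads and 187 and 105 of the Cyp11b2 reads. The Known model is the annotated one, so its start was fixed in advance. A model's start is not the start of each of its reads, and read starts were not analysed here.

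Each gene was dominated by 1 splice form in both libraries. Cyp11b1-201 held 94.6% (93.6 to 95.5) of full-length reads in replicate 1, 2096 of 2215, and 93.7% (92.5 to 94.7) in replicate 2, 1838 of 1962. Cyp11b2-201 held 94.9% (90.9 to 97.2), 187 of 197, and 96.3% (90.9 to 98.6), 105 of 109. The means were 94.2 ± 0.670% and 95.6 ± 0.994% (SD, n = 2). Neither share differed between the libraries past the threshold (adjusted p = 1 for each, Fisher's exact test over 1321 genes), beside 0.227% of those genes that were called at 10 percentage points or more. The median leading share of the 1321 genes was 94.8%.

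**Figure D4:**
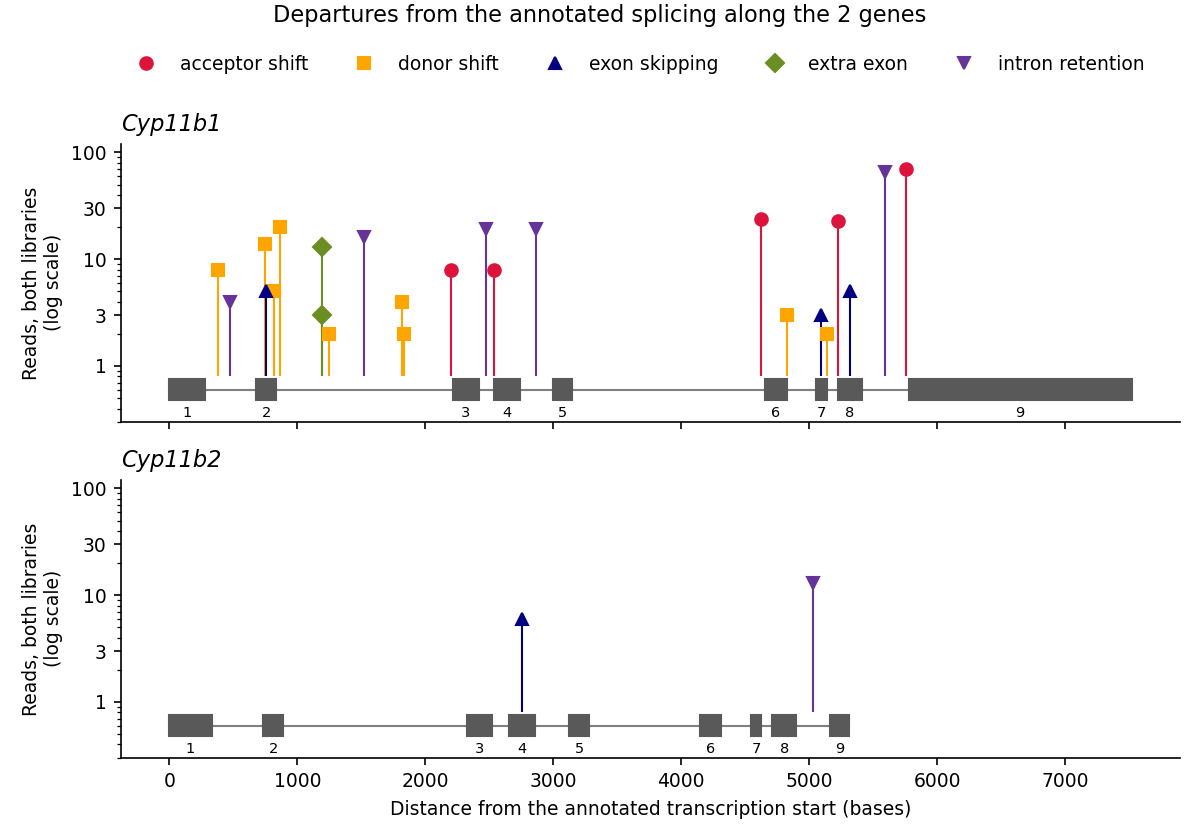
Exons (grey boxes, numbered) of Cyp11b1, upper panel, and Cyp11b2, lower panel, by distance from the annotated transcription start in bases; each marker gives the reads of both libraries (log scale) that carry an acceptor shift, donor shift, skipped exon, extra exon or retained intron at that place, for events with at least 2 reads. The tallest markers of Cyp11b1 stand at the start of exon 9 (70 reads) and in intron 8 (65 reads), and Cyp11b2 has 2 markers, in intron 8 and at exon 4. Some donor shifts drawn in intron 2 of Cyp11b1 come from models of 8 exons without the junction of exons 1 and 2.

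The remaining full-length reads were spread over many rare forms. Cyp11b1 had 78 unannotated forms, with 119 reads in replicate 1 and 124 in replicate 2. Of these forms 21 were seen in both libraries and held 91 and 89 of those reads, while 52 had a single read. Cyp11b2 had 10, with 10 and 4 reads, of which 1 was seen in both. For 7 of the 21 shared Cyp11b1 forms the same intron chain was NIC in one library and NNC in the other, so these 2 classes were not the same in the 2 tables.

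The most frequent unannotated form of Cyp11b1 used an acceptor 21 bases upstream of exon 9, with 32 and 34 reads, or 1.44% and 1.73% of full-length reads. Over all reads that cover the place, 34 of 2333 and 36 of 2071 used it (1.46% and 1.74%, adjusted p = 0.74 between the libraries by Fisher's exact test over 11 events). The 21 added bases are a multiple of 3; whether they hold a stop codon was not analysed here. In Cyp11b2, 0 of 218 and 0 of 120 reads covering intron 8 had a shifted exon 9 acceptor, which allows shares of up to 1.38% and 2.50%.

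Small shifts at other exons came next. The exon 8 start 4 bases late had 8 and 10 reads as a form of its own and 10 and 13 reads over all forms, 0.432% and 0.634% of reads covering it. From the annotated start, leaving out these 4 bases puts the first stop after 404 codons in place of 501. In Cyp11b2, 0 of 218 and 0 of 118 reads covering intron 7 had it, which allows up to 1.38% and 2.54%. These counts are too few to tell whether Cyp11b2 lacks it or has a share like that of Cyp11b1. The exon 6 acceptor 31 bases upstream had 7 and 6 reads, and 14 and 10 over all forms. A donor of exon 2 lying 29 bases downstream had 6 and 6 reads, and 11 and 9 over all forms. An exon 3 acceptor 18 bases upstream had 3 and 5 reads, and the exon 4 start 4 bases late had 3 and 3, with the first stop after 216 codons. Cyp11b2 had 1 read with the same late start of exon 4, in replicate 1. The early donor of exon 2, which leaves out 89 bases and puts the first stop after 142 codons, had 1 and 5 reads as a form and 5 and 9 over all forms.

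Shared forms with fewer reads included larger changes. An extra exon of 107 bases in intron 2 was seen in 10 and 3 reads over all forms, and as a form of its own in 3 and 1 reads. The same chain without the junction of exons 1 and 2 had 4 and 1 reads, and intron 1 was retained only in the 4 of replicate 1. A donor of exon 1 lying 108 bases downstream had 2 and 3 reads. One of exon 2 at 13 bases upstream had 1 and 1, and one of exon 6 at 4 bases downstream 2 and 1. A donor site 981 bases downstream of that of exon 2 had 1 and 2 reads. That chain has 8 exons and lacks the junction of exons 1 and 2, so it does not show a lengthened exon 2 joined to exon 1. Exon 8 was skipped in 3 and 1 reads, exon 2 in 2 and 1, and exons 7 and 8 together in 2 and 1. Skipping exon 8 or exon 2 keeps the frame, with the first stop after 438 and 449 codons, and skipping both exons 7 and 8 does not, with the first stop after 376. A junction from exon 8 to a site beyond the annotated end of the gene had 5 and 1 reads, and another with both ends outside the annotation 1 and 1. Introns 2 and 3 were retained together in 1 and 4 reads, intron 2 alone in 3 and 1, and intron 4 alone in 1 and 1, while a form that retained introns 2, 3, 4 and 8 had 0 and 3 reads. For Cyp11b2 the shared form skipped exon 4, with 4 and 1 reads, and kept the frame with a first stop after 434 codons; its other 9 forms had a single read each.

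One read, in replicate 2 and of class NNC, joined the last exon of Cyp11b2 (chr15:74850979-74851152 in the model) to a point inside exon 8 of Cyp11b1. Both edges of that junction (chr15:74836332-74850978) are unannotated sites. Whether it came from a transcript that runs through both genes or from the making of the library was not tested.

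**Figure D5:**
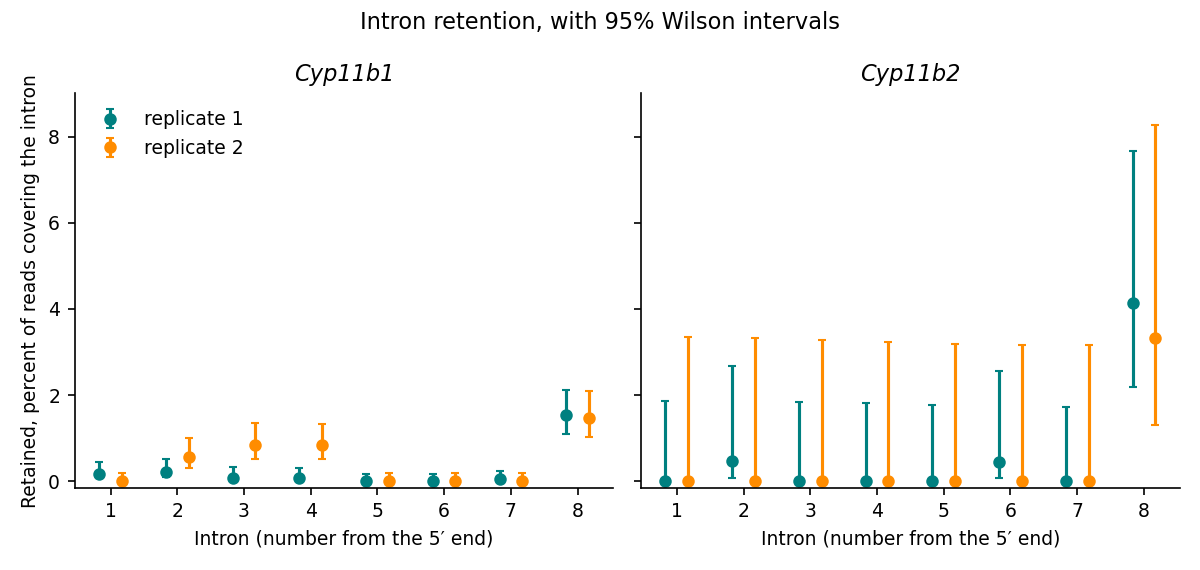
Percent of reads covering each intron that retain it, with 95% Wilson intervals, for Cyp11b1 (left) and Cyp11b2 (right), Genomic reads left out, replicate 1 in teal and replicate 2 in orange, introns numbered from the 5′ end. Intron 8 is highest in both genes, mostly through ISM reads, and introns 3 and 4 of Cyp11b1 are higher in replicate 2.

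Splicing was near complete at most introns, and intron 8, the last, was the one most often retained in both genes when ISM reads are counted. With Genomic reads left out, retention of Cyp11b1 intron 8 (366 bases) was seen in 35 of 2287 reads in replicate 1 (1.53%, 1.10 to 2.12) and 30 of 2031 in replicate 2 (1.48%, 1.04 to 2.10). Cyp11b2 intron 8 (266 bases) was retained in 9 of 218 (4.13%, 2.19 to 7.66) and 4 of 120 (3.33%, 1.30 to 8.26). Of these reads only 3 and 5 of Cyp11b1 and 1 and 1 of Cyp11b2 were full-length, and the rest were ISM reads. Among full-length Cyp11b1 reads, introns 1 and 2 had 4 and 4 retained in replicate 1, and introns 3 and 4 had 16 and 16 in replicate 2. Retention is read from the extent of a model, and a model's end is not the end of each of its reads. The difference between the genes passed the two-sided Fisher's exact test in replicate 1 (adjusted p = 0.0231 over 2 tests) and not in replicate 2 (adjusted p = 0.118). The single-exon Genomic models of Cyp11b2, with 4 and 6 reads, run across all of intron 8 and reach 1 base into exon 8, and 1 Genomic read of Cyp11b1, in replicate 1, spans its intron 8. With these counted as retained, the shares of Cyp11b1 were 36 of 2288 (1.57%, 1.14 to 2.17) and 30 of 2031 (1.48%), and those of Cyp11b2 13 of 222 (5.86%, 3.45 to 9.76) and 10 of 126 (7.94%, 4.37 to 14.0). The difference between the genes then passed in both libraries (adjusted p = 0.00021 and 0.000123 by Fisher's exact test), so the result of replicate 2 depends on how these reads are counted. Introns 5 and 6 of Cyp11b1 had 0 retained reads in either library, which allows at most 0.131% and 0.148%, and intron 7 had 1 and 0.

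Introns 3 and 4 of Cyp11b1 were retained more in replicate 2. Each had 2 reads in replicate 1 and 17 in replicate 2, 0.0885% and 0.848% of reads covering intron 3 and 0.0875% and 0.836% of those covering intron 4. Both gave adjusted p = 0.00131 over the 11 events by Fisher's exact test. Some models retain both introns, so these are not 2 separate results. Intron 2 had 5 and 11 retained reads, which did not pass (adjusted p = 0.356). In Cyp11b2, introns 3 and 4 had 0 retained reads in either library, which allows up to 1.46% and 2.65% for intron 3. The Genomic share of Cyp11b1 was also higher in replicate 2, and its part in the retained reads was not tested.

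The 3′ ends of the models need caution, since many sit on annotated positions of another gene. Of 145 Cyp11b1 models compared, Known left out and Genomic included, 103 end at position 74834871. This is an annotated boundary of Gml2-203 on the opposite strand and lies 746 bases short of the annotated end. That end was in 53 models of replicate 1 and 50 of replicate 2, with 206 and 222 reads. Of these reads, 80 and 119 were Genomic and so unspliced. A further end at 74832618, which is 1507 bases beyond the annotated end and on no annotated boundary, recurred in 8 and 9 models. These had 94 and 135 reads, of which 41 and 42 were Genomic. The same kind of Cyp11b2 models ended mostly at 74849739 in replicate 1 and 74849740 in replicate 2, which is 1271 and 1270 bases beyond the annotated end, and 2 of 26 ended on an annotated boundary. A model's end is not the end of each of its reads, and read ends were not analysed here.

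The unspliced models of Cyp11b1 lay at its 3′ end. In replicate 1, 80 Genomic reads fell in a model inside exon 9 and 41 in one from 74832618 to 74834871. In replicate 2 the models inside exon 9 had 119 and 14 reads, and the same downstream model 42. Gml2, a gene of the Ly6 family that overlaps the end of Cyp11b1 by 747 bases on the opposite strand, had 8 and 12 reads. Among 16 annotated genes within 100 kb of either member, 9 had reads. Beside the members and Gml2 these were Ly6e (291 and 362 reads), Ly6d (157 and 137), Lynx1 (47 and 40), Ly6k (24 and 15), Gm6610 (1 and 0) and 2010109I03Rik. The last was the 1 gene of the window that was called, beside 3.16% of all genes tested. It had 243 reads in replicate 1 and 27 in replicate 2 (log2 ratio 3.18, adjusted p = 1.96e-43 by Fisher's exact test). Lypd2, Slurp2, D730001G18Rik, Gm17189, Gml, Gm39556 and Gm29126 had no listed read.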

How the data were processed

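Long reads of 2 adrenal libraries (1 group) were used as deposited. Per the file headers, the authors' tables give whole-number read counts per transcript model with TALON classes, on mm10 with GENCODE M21; TALON's version is not given in these sources. Models on spike-in contigs were left out (5564 and 15900 reads). Counts were summed per gene and divided by endogenous reads (CPM). Intron chains were compared with the annotation; sequences and lengths come from the GENCODE M21 transcripts. Tests were two-sided Fisher's exact tests with Benjamini-Hochberg adjustment (SciPy 1.17.1), over genes with at least 10 reads, or 50 full-length reads per library for leading forms; the gene comparison was tested on simulated data. Intervals are 95%; PCR duplicates are not marked, so they cover counting error only, and a floor of 3 counts was used. Scaling factors came from edgeR 4.0.16 (TMM) and DESeq2 1.42.0. Members and gene lists were chosen with earlier results of these data known; named genes are the members, neighbours within 100 kb, nearest 5 by level, and called or frequent list members, of which some are not reported here. Promoter and protein sequences of the members were not used here.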

Additional observations from a re-analysis of the deposited data

Results flagged for a closer look

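Reads outside the rows of the members were seen at the 3′ side of Cyp11b1, above the 3 reads that a count of 0 allows; there were no control samples. Single-exon antisense models, on the strand of Cyp11b1 and opposite Gml2, had 14 reads in replicate 1 and 13 in replicate 2, beyond the annotated end of Cyp11b1. Of the 13, 3 belong to a model of 1 base at 74832618, a position where Cyp11b1 models also end. Single-exon Genomic models of Gml2 on the other strand had 8 reads in replicate 1 and 12 in replicate 2, of which 3 and 1 belong to models that overlap exon 9 of Cyp11b1 and the others to models beyond its annotated end. Antisense models over exons of Cyp11b1 itself had 3 reads in replicate 1, at that limit. Whether any of these sets belongs to Cyp11b1 transcripts was not tested.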

How the results depend on the processing

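No paired analysis was possible because the series has 1 group. Under full-length reads, TMM factors, DESeq2 size factors, no minimum of reads and 0.5 CPM added, both members stayed higher in replicate 1, past the adjusted p and uncalled. The ratio difference between the libraries, recomputed with full-length and with Known reads, stayed past its threshold in both. The adjusted p of Cyp11b1 ranged between 0.000114 and 0.0429 and that of Cyp11b2 between 5.93e-06 and 1.84e-05 over these alternatives. The mean Cyp11b1 level was 4566 CPM with full-length reads and 4301 CPM with Known reads, by construction. The mean read ratio was 7.39 per kilobase of the annotated transcripts; 17.2, with lengths to the commonest model end, was chosen after seeing the data. The leading share was 83.4% for Cyp11b1 and 83.5% for Cyp11b2 over all classes, by construction, and 95.0% for Cyp11b1 when splice sites within 10 bases were joined. With Genomic reads left out, the full-length difference of the members in replicate 1 was 4.37 percentage points and passed its test; with Known reads alone it was -1.02 points in replicate 2. The cause was not tested. With Genomic reads that span intron 8 counted as retained, an alternative added after seeing the data, Cyp11b1 minus Cyp11b2 in intron 8 retention was -4.28 points in replicate 1 and -6.46 in replicate 2, where it then passed its test. Leaving out 1 library gave 4861 to 5437 CPM for Cyp11b1, 274 to 491 CPM for Cyp11b2, a ratio of 11.1 to 17.7, leading shares of 93.7 to 94.6% and 94.9 to 96.3%, and full-length differences of 1.30 to 1.33 points. With 1 library on each side, the tests between libraries had none to leave out. Called genes split 139 higher in replicate 1 and 118 in replicate 2, against 118 and 132 under TMM factors. Class tests passed were 9, and 8 against reads of annotated genes only, an alternative added after seeing the data. For Cyp11b2, 127 reads in replicate 2 limit what can be seen of rare forms.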
